A study of Mus musculus with 8 samples.

Results

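The genes described here are 9 genes of red blood cells and their precursors, measured in the fetal mouse heart. They are the embryonic globins *Hbb-y*, *Hbb-bh1* and *Hba-x*, the adult globin *Hba-a1*, the haem enzyme *Alas2*, the membrane carrier *Slc4a1*, the erythropoietin receptor *Epor*, and the transcription factors *Gata1* and *Klf1*. Every non-control probe whose accession maps to one of them was kept, which gave 10 probes, 1 per gene and 2 for *Hbb-bh1*, out of 41174 probes on the array and 19092 genes named. The genes were selected on the WT and SIRT1 KO signals of these same arrays, with their log2 differences in view, so their difference between genotypes is described with its error and without a p-value.

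The embryos, of the C57BL/6 strain (C57BL/6J in the study's methods), were collected at E18.5, shortly before birth, and gave 4 WT and 4 SIRT1 KO hearts, each hybridized to its own one-color Agilent array. SIRT1 is an NAD-dependent protein deacetylase, and the study's methods describe the knockout as a whole-body germ-line one, not limited to heart cells. No treatment was given. Values are log2 of the spot intensity minus the 75th percentile of that array, so that 0 is the 75th percentile and 1 unit is a doubling of the intensity. Values of different probes are not levels that can be set against each other, and only their changes between hearts are compared.

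The 4 WT arrays lie on 1 slide and the 4 SIRT1 KO arrays on another with its own scan day, so for every value below the genotype and its slide or scan day cannot be told apart. *Sirt1* itself has 2 probes. A_52_P358612 went against the label, since all 4 hearts labelled SIRT1 KO lay above the WT hearts (log2 difference 0.54, SE 0.11, limma adjusted p = 0.0323), and the difference on A_51_P141152 was within the spread between hearts. A_52_P358612 ran from -0.14 to 0.32 in WT hearts and from 0.43 to 0.75 in SIRT1 KO hearts, and A_51_P141152 from -0.27 to -0.12 and from -0.52 to -0.02. Whether either probe lies within the deleted part is not given in the sources used here, so the SIRT1 KO hearts are those labelled SIRT1 KO throughout. All 8 cardiomyocyte markers were well above background in both genotypes, and their summed signal was 955 to 1028 times the 75th percentile in WT hearts and 937 to 1085 times in hearts labelled SIRT1 KO. The small number of arrays limits the precision of all values.

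Red blood cells carry oxygen on haemoglobin, a tetramer of α-type and β-type globin chains around haem. In the mouse, the first red cells arise in the yolk sac and make the embryonic chains encoded by *Hba-x* (ζ), *Hbb-y* (εy) and *Hbb-bh1* (βH1). Later red cells, which come from the fetal liver and then the bone marrow, make the adult chains. GATA1 and KLF1 are DNA-binding factors that switch on globin, haem and membrane genes in these cells, and erythropoietin acting on its receptor keeps the precursors alive. A heart collected whole holds the blood of its chambers and vessels, and in such bulk RNA fewer cells of a type and less RNA per cell cannot be told apart.

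The 250 bases before the RefSeq start (assembly GRCm38.p6) are shown for 4 of the genes, *Hbb-y* and *Epor*, whose probes passed the array-wide threshold, *Hba-x*, the other embryonic globin measured above background, and *Hba-a1*, the adult globin of its cluster. Capitals mark the motifs that a search of both strands found. These were a GATA motif (AGATAA, with T also allowed as its first letter and G as its last), a CACCC-type motif (CCNCNCCC) and CCAAT. No match of one motif overlapped a match of another.
Hbb-y (chr7:103853208-103853457, minus strand): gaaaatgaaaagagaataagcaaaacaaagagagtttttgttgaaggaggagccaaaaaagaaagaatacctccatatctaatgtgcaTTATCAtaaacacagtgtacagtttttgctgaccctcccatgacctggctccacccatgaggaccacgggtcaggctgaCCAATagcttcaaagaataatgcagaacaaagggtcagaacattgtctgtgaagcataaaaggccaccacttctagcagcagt
Hba-x (chr11:32276350-32276599, plus strand): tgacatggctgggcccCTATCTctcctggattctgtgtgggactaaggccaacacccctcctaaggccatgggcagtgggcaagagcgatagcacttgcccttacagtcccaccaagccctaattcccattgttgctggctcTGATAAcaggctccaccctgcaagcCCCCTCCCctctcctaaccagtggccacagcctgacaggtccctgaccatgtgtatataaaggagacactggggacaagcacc
Hba-a1 (chr11:32283422-32283671, plus strand): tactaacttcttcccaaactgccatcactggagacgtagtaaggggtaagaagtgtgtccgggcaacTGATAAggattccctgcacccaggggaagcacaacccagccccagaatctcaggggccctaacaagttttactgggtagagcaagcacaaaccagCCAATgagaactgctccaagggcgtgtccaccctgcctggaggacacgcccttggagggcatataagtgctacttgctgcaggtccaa
Epor (chr9:21963577-21963826, minus strand): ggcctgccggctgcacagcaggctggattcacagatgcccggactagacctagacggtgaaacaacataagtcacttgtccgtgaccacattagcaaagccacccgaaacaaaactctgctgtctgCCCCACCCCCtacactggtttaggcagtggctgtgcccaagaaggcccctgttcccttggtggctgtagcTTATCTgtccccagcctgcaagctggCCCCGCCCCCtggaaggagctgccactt

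*Hbb-y* held 1 GATA match, which reads as its reverse complement in the printed sequence and begins 162 bases before the start, and 1 CCAAT. *Hba-x* held 2 GATA matches, the nearer at 108 bases, and 1 CACCC-type match. *Hba-a1* held 1 GATA match at 183 bases and 1 CCAAT. *Epor* held 1 GATA match at 54 bases and 4 CACCC-type matches in 2 overlapping pairs. RefSeq windows of 300 bases, 250 before and 50 after the start, were found for 7 of the 9 genes, those of *Alas2*, *Gata1* and *Klf1* included. A GATA match was present in 6 of the 7 and in 29.8% of all 32851 promoters of that length, a CACCC-type match in 4 of the 7 and in 49.5%, and CCAAT in 3 of the 7 and in 37.4%. The genes that passed the threshold and those that did not both held GATA matches. A match of letters is not a binding site, and these counts are descriptions.

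Of the 10 probes, 6 were well above background on all 8 arrays and were part of the fit over all probes, those of *Hbb-y*, *Hba-x*, *Hba-a1*, *Alas2*, *Slc4a1* and *Epor*. The *Gata1* and *Klf1* probes were well above background on some arrays labelled SIRT1 KO and on no WT array, and both *Hbb-bh1* probes on no array. Of the 6, *Hbb-y* and *Epor* passed an adjusted p of 0.05 from limma, and both were higher in the SIRT1 KO group. That threshold was passed by 4.88% of the 25615 probes in the fit, 3.97% with a higher and 0.91% with a lower value, and since the rule that chose the genes used this contrast, nothing is read from the count.

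*Hbb-y*, the embryonic β-type globin of the yolk sac lineage, was higher in every heart labelled SIRT1 KO than in any WT heart. The probe A_51_P350058 read -3.63, -4.21, -3.55 and -3.81 in WT replicates 1 to 4 and -2.93, -2.78, -2.99 and -2.81 in SIRT1 KO replicates 1 to 4. WT replicate 2 was the lowest, and the hearts labelled SIRT1 KO lay closer together than the WT hearts. The means were -3.80 ± 0.30 (SD, n = 4) and -2.88 ± 0.10 (SD, n = 4), a log2 fold change of 0.92 (standard error 0.14), which is 1.89 times the WT intensity. With 1 heart left out the log2 fold change ran from 0.78 to 1.01.

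*Hba-x*, the embryonic α-type globin, varied far more between hearts of 1 genotype. Its probe A_51_P204053 read -3.00, -5.01, -4.66 and -4.13 in the WT hearts and -2.97, -3.59, -4.47 and -2.85 in the hearts labelled SIRT1 KO. The genotypes overlapped, with WT replicate 1 close to the highest SIRT1 KO hearts and SIRT1 KO replicate 3 among the WT values. The log2 fold change was 0.72 (standard error 0.47) and did not pass the threshold in any of the 19 alternative fits. It was 0.17 without SIRT1 KO replicates 1 and 4.

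*Hbb-bh1*, the other embryonic β-type globin, was not well above background in any heart on either probe, so no level or fold is given for it. On A_51_P179672 the 4 readings of the hearts labelled SIRT1 KO, -5.81, -5.50, -5.85 and -5.79, were all above the WT readings, -7.43, -7.68, -6.07 and -6.17. On A_52_P305876 the readings interleaved, with -6.64, -8.10, -7.21 and -7.43 in WT hearts and -6.39, -6.89, -7.58 and -8.10 in hearts labelled SIRT1 KO. The probes of this gene thus differed from each other, and none of their readings was well above background. Among the 12463 probes that were well above background on no array, 87.6% read higher in the hearts labelled SIRT1 KO, by a median of 0.14, and in 3.94% all 4 of these hearts lay above all 4 WT hearts.

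*Hba-a1*, the adult α-globin, lay near the bright end of the array in every heart. Its probe A_52_P278538 read 7.80, 7.77, 7.98 and 7.74 in the WT hearts and 7.68, 7.71, 7.61 and 7.40 in the hearts labelled SIRT1 KO. All 4 values of the hearts labelled SIRT1 KO lay below the 4 WT values, and SIRT1 KO replicate 4 was the lowest. The difference was small, -0.23 (standard error 0.09) on the log2 scale, and did not pass the threshold, which it did without scaling between arrays, at -0.45. No spot was saturated. With *Hbb-y*, *Hba-a1* and *Epor*, 3 of the 6 probes had genotypes that did not overlap, and over all probes tested 13.7% did. *Hba-a1* and its neighbour *Hba-a2* are near-identical copies, so the probe may read both, and the same holds for *Hbb-bt* and *Hbb-bs*.

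**Figure D1:**
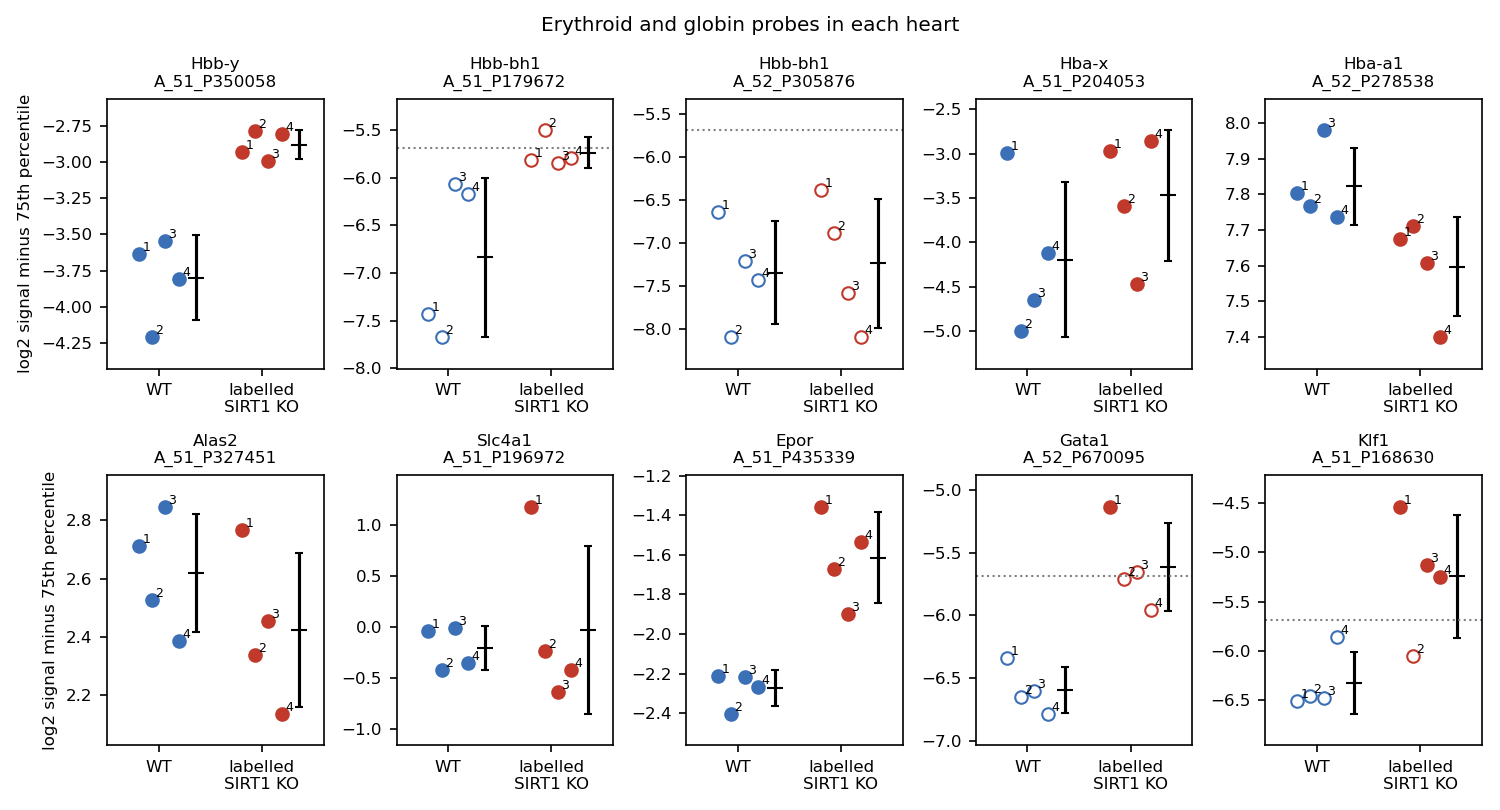
Values of the 10 probes in each heart, as log2 intensity minus the 75th percentile of the array, with 1 panel and its own axis per probe. Filled points are well above background on that array and open points are not, numbers give the replicate, the bar is the mean ± SD of the 4 hearts, and the dotted line is the mean over the arrays of the lowest signal that was well above background. In filled points the hearts labelled SIRT1 KO lie above the WT hearts for *Hbb-y* and *Epor* and below them for *Hba-a1*, while *Hbb-bh1* has open points only.

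The adult β-globin *Hbb-bt*, which is not among the 9 genes, had 4 probes on the array, and none passed the threshold. Their log2 fold changes were 0.04, -0.08, -0.01 and -0.34. The difference between an embryonic and an adult globin within a heart removes whatever scales both alike. *Hbb-y* minus *Hbb-bt* was -11.78, -12.46, -11.76 and -11.98 in WT hearts and -11.16, -11.11, -11.30 and -10.86 in hearts labelled SIRT1 KO, which did not overlap and differed by 0.88 on average. *Hba-x* minus *Hba-a1* was -10.80, -12.77, -12.64 and -11.86 in WT hearts and -10.65, -11.30, -12.07 and -10.25 in hearts labelled SIRT1 KO, which overlapped and differed by 0.95. The mean of *Hbb-y* and *Hba-x* minus the mean of *Hba-a1* and *Hbb-bt* was -12.01 ± 0.56 (SD, n = 4) in WT hearts and -11.09 ± 0.48 (SD, n = 4) in hearts labelled SIRT1 KO, a difference of 0.92, and it ran from 0.56 to 1.16 over the alternatives. *Hbb-bh1* was left out of this mean because it was at background.

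*Alas2*, the red-cell form of the first enzyme of haem synthesis, showed no shift beyond its spread. The probe A_51_P327451 read 2.71, 2.53, 2.85 and 2.39 in the WT hearts and 2.77, 2.34, 2.46 and 2.14 in the hearts labelled SIRT1 KO. The genotypes overlapped, and the log2 fold change was -0.19 (standard error 0.15). The heart with the lowest *Alas2* was also the lowest for *Hba-a1*, SIRT1 KO replicate 4, and WT replicate 3 was the highest for both. *Alas2* minus *Hba-a1* differed between genotypes by 0.03.

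*Slc4a1* (band 3), the chloride and bicarbonate exchanger of the red-cell membrane, differed between genotypes through 1 heart. The probe A_51_P196972 read -0.04, -0.42, -0.004 and -0.35 in the WT hearts and 1.19, -0.24, -0.63 and -0.42 in the hearts labelled SIRT1 KO. SIRT1 KO replicate 1 stood above all other hearts, and the other 3 hearts of its group overlapped the WT values. The log2 fold change was 0.18 (standard error 0.35) and turned to -0.23 without that heart.

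*Epor*, the receptor through which erythropoietin acts on red-cell precursors, was higher in all 4 hearts labelled SIRT1 KO. The probe A_51_P435339 read -2.21, -2.40, -2.21 and -2.26 in the WT hearts and -1.36, -1.67, -1.90 and -1.53 in the hearts labelled SIRT1 KO. The genotypes did not overlap, and the WT hearts lay within a narrow range while SIRT1 KO replicate 1 was the highest and replicate 3 the lowest of its group. The means were -2.27 ± 0.09 (SD, n = 4) and -1.61 ± 0.23 (SD, n = 4), a log2 fold change of 0.66 (standard error 0.12) or 1.58 times the WT intensity. With 1 heart left out the difference ran from 0.57 to 0.75. It did not pass without WT replicate 2, without SIRT1 KO replicates 1 and 4 together (0.49), without scaling (0.44) or in the methods' analysis of variance. *Epor* is also made by cells outside the red-cell lineage, endothelial and heart muscle cells among them, and the array does not tell its source.

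*Gata1*, the factor that opens the erythroid and megakaryocyte programmes, has 10 spots of 1 probe (A_52_P670095) on each array, and the probe was well above background on 1 array, that of SIRT1 KO replicate 1. The mean of the spots read -6.34, -6.65, -6.60 and -6.78 in the WT hearts and -5.13, -5.71, -5.65 and -5.96 in the hearts labelled SIRT1 KO, with no overlap. With 1 of 8 arrays well above background no fold is given. Of the spots that carried no outlier flag, 1 of 34 on the WT arrays and 12 of 37 on the arrays labelled SIRT1 KO were well above background, 6 of these 12 in replicate 1. Spots of 1 array share its RNA and are not replicates. The outlier flags removed 6 of 40 spots on the WT arrays and 3 of 40 on the others, and these were the brightest spots of their arrays. With those spots kept the readings of the genotypes still did not overlap, but their means came closer. These were -6.21 in WT hearts and -5.48 in hearts labelled SIRT1 KO, against -6.59 and -5.61 with the spots left out. Probes well above background on no array also mostly read higher in hearts labelled SIRT1 KO (87.6% of them).

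**Figure D2:**
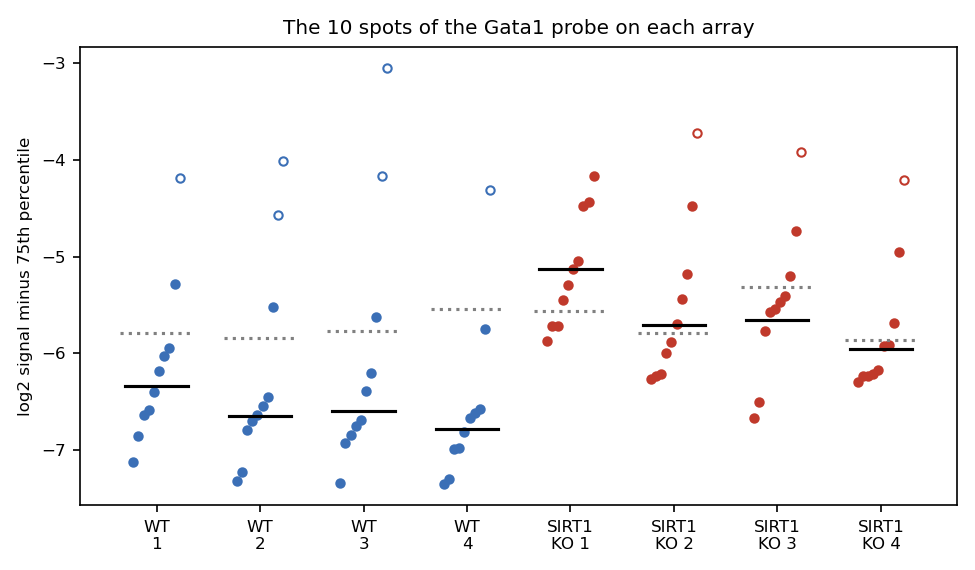
The 10 spots of the *Gata1* probe on each array, as log2 intensity minus the 75th percentile, in order of intensity within an array. Filled points were used, open points carried an outlier flag and were left out, the line is the mean of the used spots, and the dotted line is the lowest signal that was well above background on that array. On the WT arrays 1 used spot was well above background, and in SIRT1 KO replicate 1 there were 6.

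*Klf1*, the factor that binds CACCC-type motifs in globin promoters, was well above background on 3 arrays labelled SIRT1 KO and on no WT array. Its probe A_51_P168630 read -6.51, -6.46, -6.48 and -5.86 in the WT hearts and -4.53, -6.05, -5.13 and -5.25 in the hearts labelled SIRT1 KO. SIRT1 KO replicate 1 was again the highest, and SIRT1 KO replicate 2 lay below WT replicate 4, so the genotypes overlapped. No fold is given, since no WT heart and 3 of the 4 others were measured above background. The array read neither factor far enough above background to enter the fit over all probes.

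Among the other genes of the lineage, 2 rose and 1 fell. Of 84 further erythroid genes listed, 75 were on the array and 66 were tested, each by its brightest probe. Compared with WT hearts, 33 of them read higher and 33 lower, with a median log2 fold change of 0.007 against 0.008 over the whole array fit. With median scaling the list's median was -0.12 and without scaling -0.21, and over all probes these settings gave -0.12 and -0.21 as well. The threshold was passed by 3 genes, 4.55% of the list against 4.88% of all probes, and 11 of the 66 (16.7%) had an unadjusted p under 0.05 from limma, against 21.5% of all probes. The genotypes did not overlap in 8 of the 66, a share of about the 13.7% seen over all probes.

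Of the other globins, 3 genes were measured. *Hbq1b*, a θ-type globin of the α cluster, read -5.20, -5.19, -4.85 and -5.27 in WT hearts and -3.62, -4.06, -4.00 and -4.42 in hearts labelled SIRT1 KO. It rose by 1.10 on the log2 scale (SE 0.16, limma adjusted p = 0.00722), and on the WT side it was well above background on 3 of the 4 arrays. The rise was 0.41 with normexp on the median signal, and the call was lost in the methods' analysis of variance. The copy *Hbq1a* gave -0.40 (SE 0.19, limma adjusted p = 0.267). The genes are neighbours in the same cluster, and how far each probe also reads the other gene was not tested. RefSeq places the α-type genes in the order *Hba-x*, *Hba-a1*, *Hbq1b*, *Hba-a2*, *Hbq1a*, so *Hbq1b* lies between both adult copies. In the β cluster the order is *Hbb-bt*, *Hbb-bs*, *Hbb-bh2*, *Hbb-bh1*, *Hbb-y*.

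Among 13 red-cell enzymes and maturation genes, 1 rose and 1 fell. *Car1*, the carbonic anhydrase of red cells, read -4.00, -3.84, -3.65 and -3.87 in WT hearts and -3.15, -2.79, -3.10 and -2.76 in hearts labelled SIRT1 KO. It rose by 0.89 (SE 0.12, limma adjusted p = 0.00426), with every heart labelled SIRT1 KO above every WT heart, and passed the threshold in each of the alternative fits. *Bpgm*, which makes 2,3-bisphosphoglycerate, the small molecule that lowers the oxygen affinity of haemoglobin, read 1.52, 1.66, 1.79 and 1.68 in WT hearts and 1.27, 1.27, 1.36 and 1.19 in hearts labelled SIRT1 KO. It fell by 0.38 (SE 0.08, limma adjusted p = 0.0289), on 1 of its 2 probes, since the other gave -0.17 and did not pass. Leaving out a single heart lost its call in 6 of 8 fits.

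No gene passed in the other groups. Of 16 membrane and skeleton genes 7 were higher and 9 lower. *Xk*, a blood-group membrane protein, gave -0.33 on the log2 scale. Of 17 haem and iron genes 9 were higher and 8 lower, among them *Fech*, which inserts iron into haem, at 0.39 (adjusted p = 0.117 from limma) and *Blvrb*, a biliverdin reductase, at 0.35 (adjusted p = 0.0769 from limma). Of 13 transcription factors 7 were higher and 6 lower, with *Ldb1*, a partner of GATA1 complexes, at 0.17 and *Klf3*, a repressor related to KLF1, at -0.29. The 4 genes of erythropoietin signalling that were tested gave log2 fold changes from 0.07 to 0.29. *Stat5b*, which carries the receptor signal to the nucleus, and *Cish*, an inhibitor that this signal induces, gave 0.29 and 0.15 without passing. The second, dimmer probes gave -0.16 for *Stat5b*, opposite in sign, 0.06 for *Fech*, 0.27 for *Ldb1* and -0.09 for *Klf3*, and none of them passed. *Blvrb*, with all 4 hearts labelled SIRT1 KO above the WT hearts, passed with array weights (0.40), with normexp on the median signal (0.34) and without SIRT1 KO replicate 4 (0.43), and *Xk* (-0.55) and *Klf3* (-0.51) passed without scaling.

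**Figure D3:**
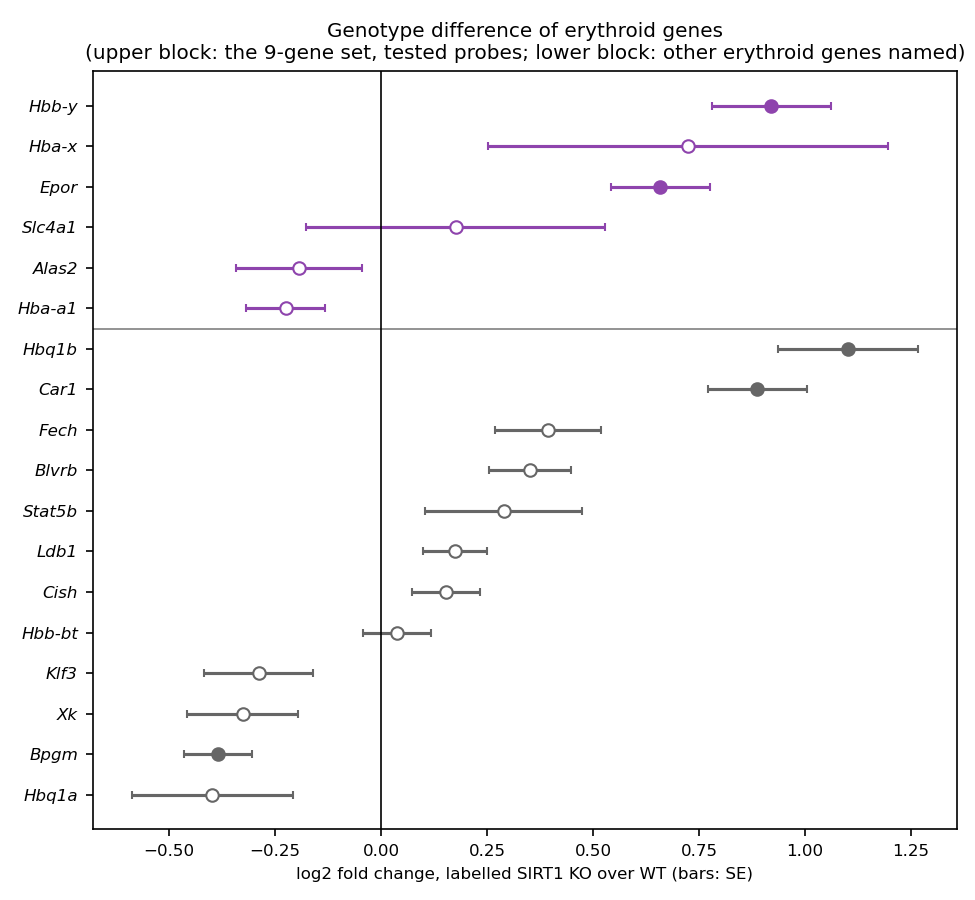
Log2 fold change of the hearts labelled SIRT1 KO over WT hearts (horizontal axis) for the 6 tested probes of the 9 genes (upper block) and for 12 other erythroid genes (lower block), each by its brightest probe. Bars are the standard error from limma and filled points passed an adjusted p of 0.05. *Hbb-y*, *Epor*, *Hbq1b* and *Car1* lie to the right of 0 and *Bpgm* to the left.

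The place of the probes on the brightness range bears on how the counts read. When the probes tested are split by mean signal into 3 parts of equal size, the dimmest, which holds *Hbb-y* and *Hba-x*, had 8.78% past the threshold, 7.75% with a higher value in the SIRT1 KO group, and a median log2 fold change of 0.10. Of the middle probes, with *Slc4a1* and *Epor*, 4.04% passed. Of the brightest, with *Hba-a1* and *Alas2*, 1.82% passed. Of the other erythroid genes, *Hbq1b* and *Car1*, described above as higher, were dimmer on average than *Hbb-y* and so lay in the dimmest part too. The part of brightness in the differences of *Hbb-y*, *Hbq1b* and *Car1* was not tested.

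**Figure D4:**
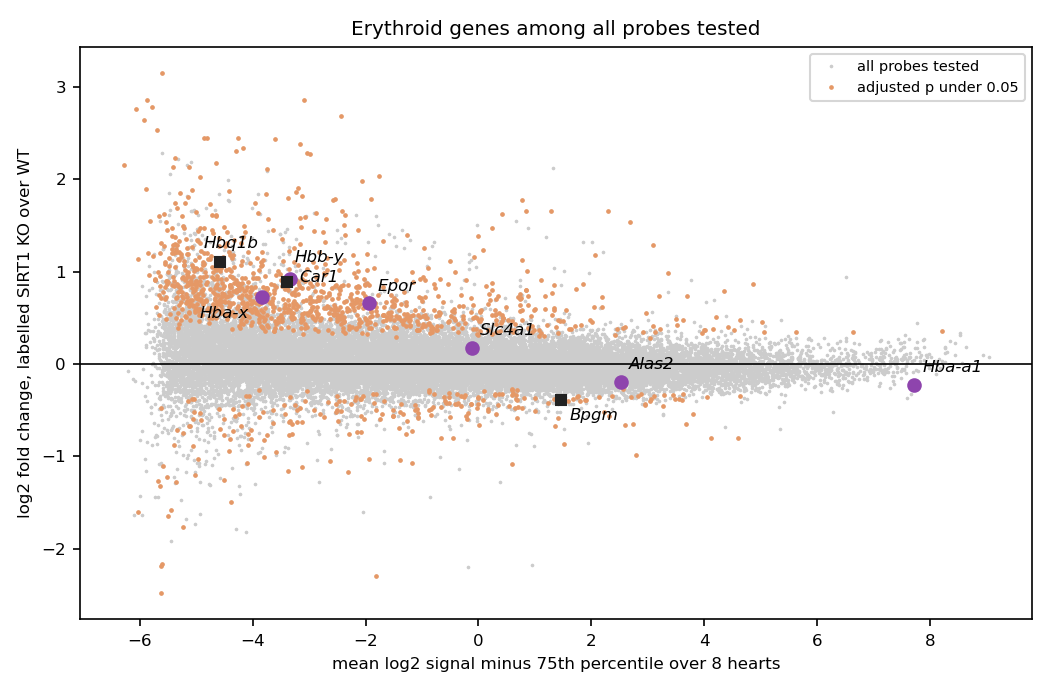
Log2 fold change of the hearts labelled SIRT1 KO over WT hearts (vertical axis) against the mean log2 intensity minus the 75th percentile over the 8 hearts (horizontal axis) for the 25615 probes tested. Grey points are all probes, orange points passed an adjusted p of 0.05, purple circles are the 6 tested probes of the 9 genes and black squares the 3 other erythroid genes that passed. The orange points lie mostly above 0 and at the dim end, where *Hbb-y* sits, while *Hba-a1* is near the bright end.

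Markers of other cell types also differed from heart to heart. The signals of the 7 hepatocyte markers tested were summed, as a multiple of the 75th percentile. This sum was 19.0, 15.7, 11.3 and 27.5 in WT replicates 1 to 4 and 117, 18.6, 13.3 and 61.8 in SIRT1 KO replicates 1 to 4. Hearts 1 and 4 labelled SIRT1 KO were thus above every other heart. Of these 7 markers none passed the threshold in limma, with a median log2 fold change of 1.32. *Serpina1a* was not well above background anywhere and is not in the sum. The summed signal of the 7 neutrophil markers tested was 13.8 in SIRT1 KO replicate 1 and 4.64 to 7.50 in the other 3 hearts of its group. It was 5.22 to 7.13 in the WT hearts. *Elane* was at background everywhere and is not in the sum. SIRT1 KO replicate 1 was also the highest heart for *Slc4a1*, *Epor*, *Gata1* and *Klf1*, and hearts 1 and 4 were the highest of their group for *Hba-x* and *Epor*. Within the group labelled SIRT1 KO, *Hbb-y* was highest in replicate 2 (-2.78) and lowest in replicate 3 (-2.99). Its spread there was narrow (SD 0.10, n = 4), so nothing is read from this order. Without replicates 1 and 4 the *Hbb-y* difference was 0.91 but did not pass the threshold, and neither *Hbb-y* nor *Epor* was called. The part of the liver and neutrophil signals in these results was not tested. Macrophage, endothelial and platelet sums showed no such heart. Of 5 lung markers, *Sftpb* and *Sftpa1* were at background everywhere, and only *Cldn18* was tested, with a log2 fold change of 0.02. SIRT1 KO replicates 1 to 3 read above all WT hearts for *Cldn18* (-3.65, -4.23 and -4.47) and replicate 4 below them (-7.80).

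**Figure D5:**
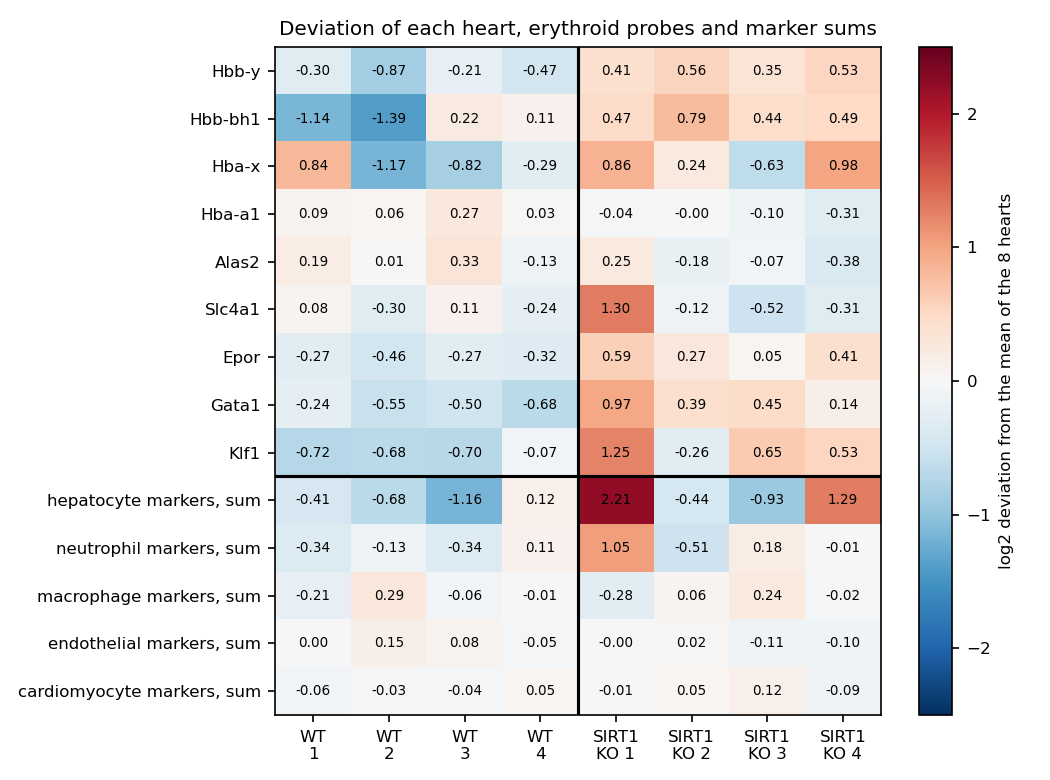
Log2 deviation of each heart (columns) from the mean of the 8 hearts for the probes of the 9 genes (upper rows, *Hbb-bh1* by A_51_P179672) and for the log2 of summed cell type markers (lower rows). Red is above and blue below the mean, and the number in each cell is the deviation. The hepatocyte sum is high in SIRT1 KO replicates 1 and 4, the neutrophil sum in replicate 1, and *Hbb-y* is above its mean in all 4 hearts labelled SIRT1 KO.

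Likeness to the embryonic globins was measured as Pearson's r over the 8 hearts between each of 13551 genes and the mean of *Hbb-y*, *Hbb-bh1* and *Hba-x*, each centred. This mean includes *Hbb-bh1*, which was at background. The 10 most alike were *Krtcap3*, *Myh3*, *Sap130*, *Rnf207*, *Igflr1*, *Csnk1g1*, *Hoxb3*, *Adgrl1*, *Lzts3* and *Abca7*, with r from 0.989 to 0.966, and from 0.971 to 0.907 after the genotype means were subtracted. With 8 hearts and so many genes high values arise readily, and these are given as a description. Against *Hbb-y* alone, a reference chosen after its values were seen, *Rasgrp3*, *Ssh3* and *Sh3gl3* led, with r from 0.986 to 0.978, and 0 of the 10 genes above were among the first 25. None of the 66 other erythroid genes was among the 100 most alike to either reference. The first 100 are so small a share of 13551 genes that 0 of 66 is close to it. Nothing is read from that count. The median r of the 66 was 0.07 for the mean and 0.03 for *Hbb-y*, against -0.04 and -0.03 over all genes compared. For *Hba-a1*, a reference chosen after its values were seen, 3 of the 66 were, with a median r of 0.02 against 0.04 over all genes. For *Slc4a1*, chosen likewise, 6 of the 66 were, with *Tspo2* at r = 0.961, and 2 of 7 neutrophil markers. The median r of the 66 to *Slc4a1* was 0.15, against 0.003 over all genes.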

How the data were processed

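RNA of 4 WT and 4 SIRT1 KO hearts at E18.5 was measured on one-color Agilent arrays. The authors deposited the spot intensity as Feature Extraction wrote it (12.0.0.7 in the file headers) with background subtraction and no scaling between arrays, and a series table of the same intensity values. Here log2 was taken, the 75th percentile of each array over non-control spots was subtracted, spots of a probe were averaged, and control and outlier spots were left out. Probes with at least 0.5 of their spots above background were counted as well above background, and those so on at least 4 of 8 arrays (25615 of 41174) were fitted with limma 3.58.1 in R 4.3.3 and adjusted by Benjamini-Hochberg. Accessions were matched without versions to RefSeq names (GRCm38.p6), which named 68.5% of probes. The array annotation is of an older build, so no probe coordinates are given.

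The 9 genes and all gene lists were chosen with earlier results of these data known. Named are every probe of the 9 genes, the adult globins, every other listed gene past the threshold, the 2 with the smallest p per group, and the 10 genes most alike. A single gene that this rule names is not reported here. A gene is given by its brightest probe. The labels call the hearts 4 pairs and number them, and say nothing of shared litters. The alternatives covered the scaling, the background correction, the filter, array weights, a replicate block, each heart left out, and the analysis of variance that the methods name, run with genotype as its only factor. On simulated arrays with 200 of 25535 probes changed by 1 log2 unit, the fit recovered 80.5%, and 5.29% of its calls were false. Figures were drawn with matplotlib 3.10.9.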

Additional observations from a re-analysis of the deposited data

Results flagged for a closer look

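In groups of 4 hearts, the highest or lowest value was compared with the range of its group, which by chance singles out about 1 group in 20, and 2 of 46 groups stood apart. On the *Hbb-bh1* probe A_51_P179672, SIRT1 KO replicate 2 lay above the other hearts of its group, with a gap of 0.842 of the group's range. On the *Klf1* probe, WT replicate 4 lay above the other WT hearts, with a gap of 0.929 of the range. Both readings were not well above background on their arrays.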

How the results depend on the processing

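*Hbb-y* stayed higher in the hearts labelled SIRT1 KO in all 19 alternative fits, between 0.64 and 1.01 on the log2 scale. Of the 10 probes, the number past the threshold was 2, and it was 3 with no filter on dim probes, where *Gata1* at background was added, 1 in the methods' analysis of variance, 0 without SIRT1 KO replicates 1 and 4 (an alternative chosen after seeing the data, which leaves 2 hearts in that group), and from 1 to 2 with 1 heart left out, the lower count being without WT replicate 2. Over all probes the count of 1250 became 6352 without scaling, 2566 with normexp on the median signal, 546 in the analysis of variance, 2131 with array weights and 646 without SIRT1 KO replicates 1 and 4, and ran from 657 without WT replicate 3 to 1825 without SIRT1 KO replicate 3. It was 658 without WT replicate 2, 728 without SIRT1 KO replicate 1 and 726 without SIRT1 KO replicate 2. The share of calls that were higher was 81.4%, and it was 63.9% with quantile normalization, 38.1% with median scaling, which moves the median of all probes to -0.12, and 10.1% without scaling, which moves it to -0.21. Of the other erythroid genes 3 passed, against 5 with median scaling, 17 without scaling and 5 with array weights, and 2 to 4 with 1 heart left out. Their median was -0.12 with median scaling, -0.21 without scaling and -0.069 without SIRT1 KO replicates 1 and 4. The cause of these changes was not tested. No result past the threshold changed sign, while *Slc4a1*, which did not pass, was lower in 3 of 19 fits. With the replicate number as a block, 1185 probes, 2 of the 10 probes and 4 other erythroid genes passed, and since deviations of same-numbered hearts correlated by 0.20, 0.21, 0.06 and 0.14, the numbers were not taken to pair them. Every heart correlated best with its own number, a hint from the data only. The planned normexp on the mean signal was not run, since the columns used here hold the median signal. Each slide holds 1 genotype, so slide could not be fitted as a block.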
